A study of Rattus norvegicus with 98 samples.

Results

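The nasal epithelium of rats that had inhaled 6 ppm formaldehyde was compared with that of rats kept in air, 24 h after the exposures began. Members were chosen by their titles: the 4 arrays of 6 ppm inhalation at 24 h and the 4 arrays of 0 ppm at 24 h, which made 8 of the 98 arrays of the study and 2 of its 24 groups. All 8 animals were male F344/NCrl rats aged 8 weeks. Exposure was whole-body, 6 h per day on 5 days per week, so collection at 24 h came 18 h after the end of the first exposure day. The labels do not state whether a second exposure had begun by then. The only difference the labels give between both groups is the chamber concentration, 6 ppm or 0 ppm. The exposed animals are 288, 289, 290 and 292 and the air animals 54, 56, 57 and 58, and values are listed below in these orders.

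Proteases released the cells from nasal level II tissue, and they were, by the study's account, mainly transitional epithelium with some respiratory epithelium. Each animal gave 1 Affymetrix Rat230_2 array. A signal is a deposited log2 value of 1 probe set, a difference is a difference of group means on the log2 scale of 6 ppm minus air, and the word called means an adjusted p under 0.05. Each sample is a mixture of cells, so fewer cells of a type and less RNA per cell cannot be told apart.

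Formaldehyde is a water-soluble, reactive aldehyde that is largely absorbed in the front of the nose, where it reacts with glutathione, protein and DNA. Cells oxidise it through a glutathione-dependent pathway that uses Adh5, and electrophile stress switches on genes of the Nrf2 pathway such as Hmox1 and Srxn1. Irritant injury of this epithelium is known to be followed by inflammation and by division of the remaining cells. The 24 h collection addresses what of the response to the first exposure day was still measurable 18 h after that exposure ended. Any second exposure by then is not stated in the labels.

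Few differences passed the test. Of 31042 probe sets, 1 was called in limma's moderated test (0.00322%), and it had no listed gene. That probe set, 1386300_at, had signals of 3.86, 3.50, 3.49 and 3.60 in the exposed animals and of 3.29, 3.24, 3.20 and 3.14 in air. The groups did not overlap, and the difference was 0.39 ± 0.07 (SE, adjusted p = 0.0177). Its mean signal over the 98 arrays lay at percentile 3.80 of all probe sets, near the bottom of the measured range. At 24 h it also stood 0.32 above the same air animals at 0.7 ppm and 0.14 above them at 2 ppm. Its call was lost in 4 of the 8 fits that left out 1 animal (without 288, 292, 56 or 58, where the adjusted p lay between 0.0699 and 0.227) and when the 2 groups were fitted alone (adjusted p = 0.631).

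An unadjusted p under 0.05 was reached by 2350 probe sets, 1218 higher and 1132 lower, where 1552 would be 5% of those tested. The next smallest p-values belonged to Oprm1, an opioid receptor gene, at 0.51 ± 0.10 above air, and to Prpf6, a splicing factor gene, at -0.31 ± 0.06 (adjusted p = 0.0548 for both). Tmem131l followed at -0.51 and Skic3, a gene of the RNA-degrading Ski complex, at -0.42, both with an adjusted p of 0.0817. These genes were singled out by their p-values. No call was made among them.

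The number of calls moved with single animals of both groups. Leaving out air animal 57 raised it to 20 and leaving out exposed animal 289 to 6, while 0 remained without exposed animal 292 or air animals 56 or 58. Among the 20 were Nr1d1, a clock repressor, at 1.04 (adjusted p = 0.00972), Oprm1 at 0.61, and Tmem131l at -0.55 (adjusted p = 0.0354). RNA integrity numbers were 8.2 to 8.6 in the 3 exposed animals that have one and 7.5 to 8.2 in 3 air animals. Exposed animal 288 and air animal 57 have none, and the fit over the 85 arrays of the study that have one left them out. It called 5 probe sets without the number as a covariate, an alternative chosen after seeing the data, and 2 with it. Probe set 1386300_at was among neither (adjusted p = 0.138 and 0.182).

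The 8 arrays were alike. Correlations between arrays across probe sets lay between 0.9858 and 0.9935 among the exposed animals, between 0.9912 and 0.9919 among the air animals, and between 0.9859 and 0.9924 across groups. The median SD over probe sets was 0.133 in the exposed group and 0.142 in air. A 95% interval of a difference, without adjustment for the number of probe sets, extended a median of 0.23 to either side. Differences within about that size could not be told from 0 for a typical probe set. A call needed a larger difference than that, and Oprm1 at 0.51 ± 0.10 was not called.

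The response at 6 h was the starting point for what could remain. At 6 h, in separate animals, 76 probe sets were called against their own air group (0.245%), 35 higher and 41 lower. None of the 76 was called at 24 h, and 11 of them (14.5%) had an unadjusted p under 0.05, against 7.57% of all probe sets. Since these probe sets were selected by their 6 h values, those values are likely to be overstated, and a smaller value at another time is partly built into the choice. The 35 that rose at 6 h had a median difference of 0.86 at 6 h and of 0.04 at 24 h, with 20 above and 15 below air, in a range from -0.25 to 0.38. The 41 that fell at 6 h had medians of -0.53 and -0.16. At 24 h, 35 of them were below air, in a range from -0.60 to 0.16. Over all probe sets, 60.3% had the same sign at both times.

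All 76 lay nearer to 0 at 24 h than at 6 h. The 95% interval at 24 h excluded the 6 h value in 71 of them, and excluded a share of 0.5 of that value in 29. The change itself, the 6 ppm effect at 24 h minus that at 6 h, was tested in the same model and no probe set was called (0%, limma, with 1628 at an unadjusted p under 0.05 and a smallest adjusted p of 0.309). Among the 76, the change had an unadjusted p under 0.05 in 62, and adjusted p-values ran from 0.314 to 0.993. The 6 h values that chose the 76 also enter this change, so a high count among them is partly built in. The interval counts of 71 and 29 take the chosen 6 h values as fixed, without their own error.

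**Figure D1:**
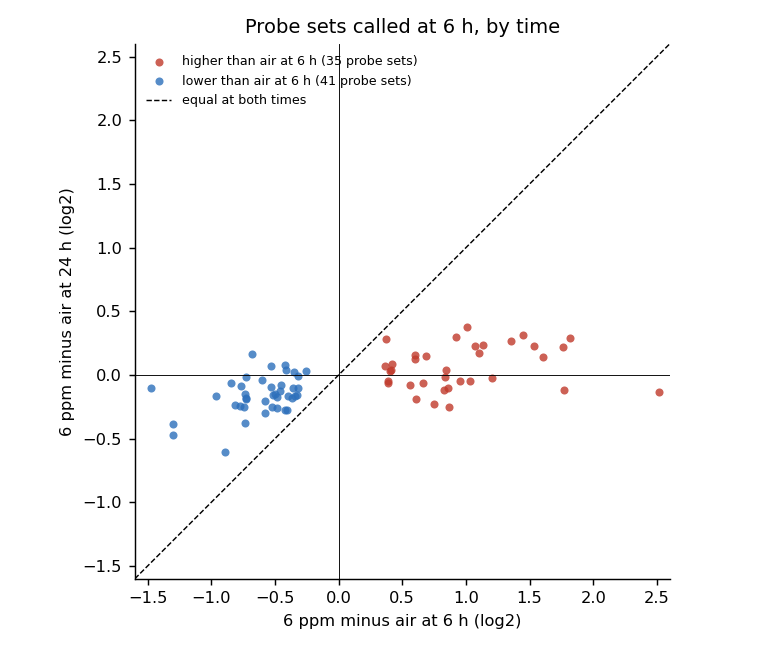
Differences of 6 ppm from air (log2) for the 76 probe sets called at 6 h, at 6 h on the horizontal and at 24 h on the vertical axis; 1 point is 1 probe set and the dashed line marks equal values. The 24 h values lie between -0.60 and 0.38, with the 6 h rises on either side of zero (20 above, 15 below) and 35 of the 41 falls below it.

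Electrophile and wound genes that rose at 6 h were close to air at 24 h. Hmox1, which encodes the haem-degrading enzyme haem oxygenase 1, had signals of 9.85, 8.93, 9.19 and 8.94 in the exposed animals of 6 h against 7.68, 7.52, 7.72 and 7.57 in their air group. At 24 h the exposed animals were at 8.09, 8.55, 8.45 and 8.09 and the air animals at 7.98, 8.16, 8.58 and 7.90. The groups were apart at 6 h and intermingled at 24 h, and the difference went from 1.60 (3.04-fold) to 0.14 ± 0.23 (1.10-fold, 95% interval -0.33 to 0.61). The air animals of 24 h also lay above those of 6 h for this gene.

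Srxn1, which repairs over-oxidised peroxiredoxins, differed by 1.07 at 6 h and by 0.23 ± 0.25 at 24 h. Its exposed animals at 24 h had signals of 8.41, 8.71, 8.29 and 8.59, within and just above the air range of 7.94 to 8.65. Txnrd1, a thioredoxin reductase gene, went from 0.60 to 0.12 ± 0.14. Of the 26 measured Nrf2 targets, 16 were above and 10 below air at 24 h with a median of 0.01, and none reached an unadjusted p under 0.05. Over all 14217 genes, 48.2% were above and 51.8% below air, 3.33% reached that p above air and 4.07% below it. Slc7a11, the cystine importer, stood at 0.04 ± 0.34 and Nqo1, a quinone reductase gene, at 0.17 ± 0.14.

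Maff, a small Maf transcription factor gene, had exposed signals of 6.58, 6.80, 6.78 and 6.59 at 24 h against 6.49, 6.35, 6.81 and 6.18 in air. The difference was 0.23 ± 0.25, against 1.54 at 6 h, and air animal 57 was as high as any exposed animal. Tnfrsf12a, the receptor of the injury cytokine TWEAK, had the highest 24 h value of the 12 genes with the largest rises at 6 h. Its exposed signals were 7.90, 7.82, 8.22 and 8.40 against 7.64, 7.88, 7.71 and 7.83, a difference of 0.32 ± 0.19 (adjusted p = 0.763) after 1.45 at 6 h, and the groups overlapped only through 289 and air animals 56 and 58. At 2 ppm and 0.7 ppm the same gene stood at -0.20 and -0.22.

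Plaur, the urokinase receptor gene, stood at 0.72 ± 0.37 in the same list of small Maf and wound receptor genes, where 14 of 21 members were above air and the median was 0.09. Its signals were 5.23, 6.45, 5.66 and 5.67 against 4.72, 5.22, 5.53 and 4.66, with 289 highest. Areg, an EGF receptor ligand gene of wounds, stood at 0.66 ± 0.52. The squamous genes Sprr1b, a cornified envelope precursor, and Tgm3, a transglutaminase of that envelope, had risen by 2.51 and 1.77 at 6 h. At 24 h they were at -0.14 ± 0.56 and -0.12 ± 0.42, and their highest signals, 8.52 and 8.09, were those of air animal 56. Without that animal both differences changed sign, to 0.76 and 0.28.

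**Figure D2:**
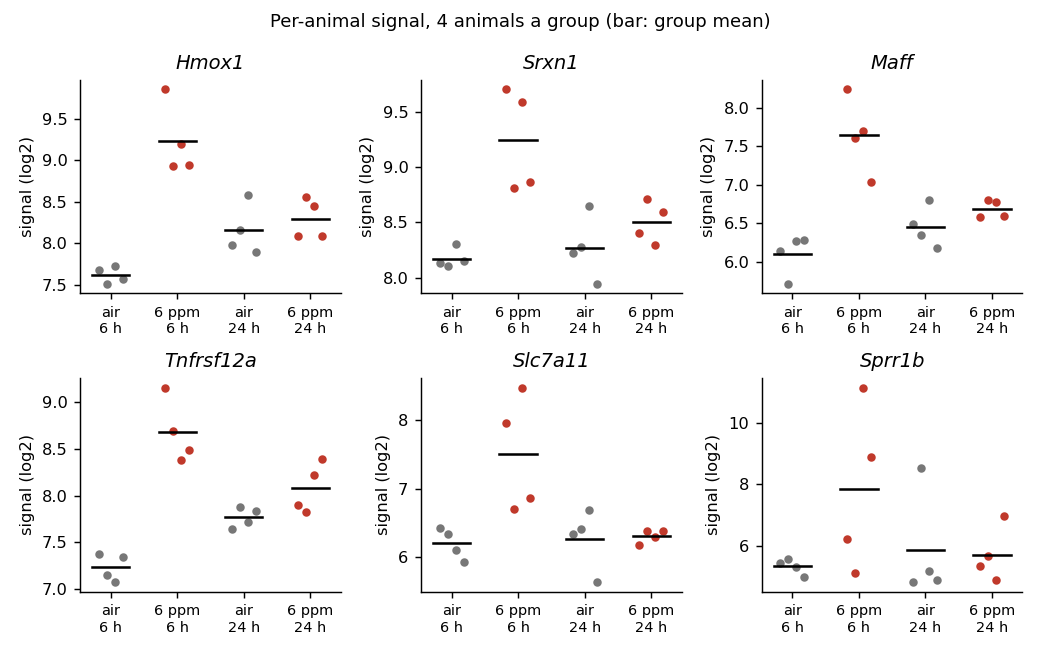
Signals (log2) of 6 genes in each animal for air and 6 ppm at 6 h and at 24 h, with 4 animals a group and a bar at each group mean. Hmox1, Maff and Tnfrsf12a are apart from air at 6 h and overlap with air at 24 h; Sprr1b is high in 2 exposed animals at 6 h and in air animal 56 at 24 h.

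Of the genes that fell most at 6 h, some stood below air at 24 h. Ooep, known from oocytes, stood at -0.38 ± 0.23 after -1.30 at 6 h, with exposed signals of 6.65, 6.48, 6.43 and 6.43 and air signals of 6.97, 6.65, 6.91 and 6.99. Tnfsf10, which encodes the death ligand TRAIL, stood at -0.47 ± 0.29 after -1.30, with 6.35, 6.48, 6.73 and 6.22 against 7.17, 7.05, 6.85 and 6.59. In both genes the exposed animals were the lower ones with an overlap of 1 air animal.

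Immune genes among the 6 h falls were close to air. Evi2a stood at -0.10 ± 0.34 after -1.47, and RT1-Da, a class II antigen presentation gene, at -0.01 ± 0.17 after -0.73. The markers of macrophages and dendritic cells had a median of -0.45 at 6 h, with 22 of 25 below air, and of -0.04 at 24 h, with 14 of 25 below air. Pla2g4a, the arachidonate-releasing phospholipase gene, went from -0.76 to -0.08 ± 0.19. Map3k1, a stress kinase gene, stood at -0.24 ± 0.17 after -0.81, and Bmal1 is given with the clock genes.

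Several of the weaker 6 h falls stood slightly below air at 24 h. Rbl2, a retinoblastoma family gene that restrains the cell cycle, stood at -0.18 ± 0.08 after -0.36. Coasy (coenzyme A synthesis) stood at -0.27, Edem2 (disposal of misfolded glycoproteins) at -0.26 and Aacs (acetoacetate use) at -0.25, each with an unadjusted p under 0.05 and an adjusted p of at least 0.406. These were picked from the 11 because they have a listed gene and a known role.

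Cell cycle genes stood mostly above air at 24 h, the reverse of their position at 6 h. Of 54 measured members, 45 were above air with a median of 0.14, where 45 had been below air at 6 h with a median of -0.18. None was called. At an unadjusted p under 0.05, 9 were above and 1 below air, against 3.33% and 4.07% of all genes. Members of a list can vary together, so their shared sign is not that of independent genes. The list includes E2f1, which switches on S phase genes, with exposed signals of 6.21, 6.03, 6.06 and 6.00 against 5.48, 5.78, 5.92 and 5.67. All 4 exposed animals were above all air animals, as for 2.22% of all genes, and the difference was 0.36 ± 0.09 (adjusted p = 0.219).

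E2f8, a repressor of the same family, stood at 0.45 ± 0.15, with 4.45, 4.41, 4.48 and 4.64 against 4.29, 3.98, 3.98 and 3.91. Ccne1, cyclin E1 of the entry into S phase, stood at 0.44 ± 0.15, with 6.14, 5.89, 5.97 and 5.90 against 5.55, 5.38, 5.72 and 5.50. Neither gene overlapped between groups. Mki67, the Ki-67 proliferation marker, had 6.81, 6.84, 6.74 and 7.33 against 6.32, 6.67, 6.53 and 6.55, a difference of 0.41 ± 0.24 that rested in part on 292. Asf1b, a histone chaperone gene of dividing cells, stood at 0.55 ± 0.18 and did not overlap.

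Other members were close to air or lower. Of the 9 members below air, Lig1, the DNA ligase of replication, had the largest difference, -0.28 ± 0.08. Lig1 and Mcm7, a subunit of the replicative helicase (-0.09 ± 0.09), did not overlap with air, as for 2.24% of all genes in that direction. Pcna, the sliding clamp of replication, stood at 0.11 ± 0.09 with 11.22 ± 0.10 (SD, n = 4) against 11.11 ± 0.07. Averaged over the 54 genes, the exposed animals had signals of 6.80, 6.78, 6.78 and 7.00 and the air animals of 6.58, 6.74, 6.82 and 6.57, so air animal 57 reached the exposed level. The medians of the same list at 2 ppm and 0.7 ppm against the same air animals were -0.02 and -0.03. The 6 ppm effect on these members at 24 h differed from that at 6 h by a median of 0.33, with a smallest adjusted p of 0.61.

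**Figure D3:**
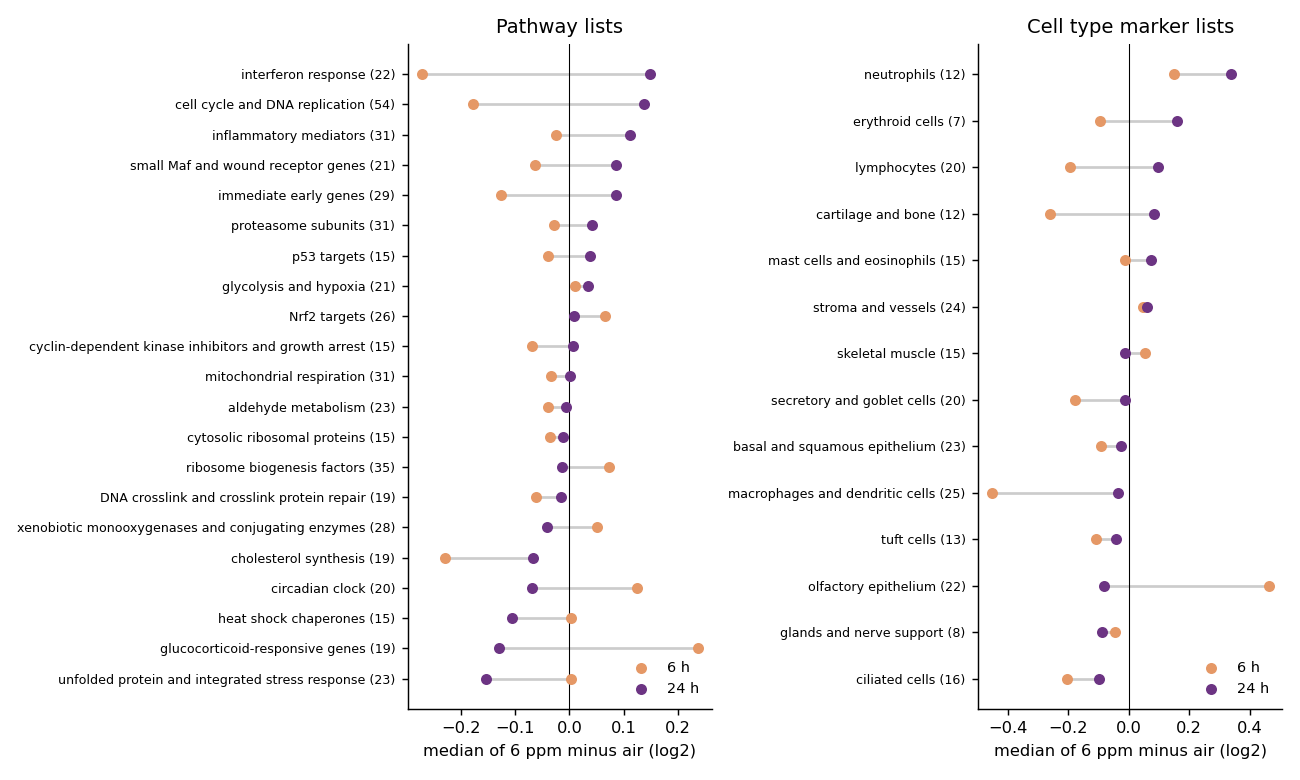
Median difference of 6 ppm from air (log2) over the measured genes of each list at 6 h and at 24 h, with the number of genes in parentheses; pathways are on the left and cell type markers on the right. The interferon and cell cycle lists lie left of zero at 6 h and right of zero at 24 h, and all medians at 24 h lie between -0.15 and 0.34.

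Among named genes without overlap, 5 of the 6 largest differences above air were those of inflammatory genes. Both the lack of overlap and the rank were part of the choice of these genes. In the list of 31 inflammatory mediators, 4 were higher and 0 lower without overlap, against 2.22% and 2.24% of all genes. Il1b, which encodes the inflammatory cytokine interleukin 1 beta, had exposed signals of 8.64, 10.72, 8.72 and 8.82 against 7.51, 8.30, 8.12 and 8.55. Every exposed animal was above every air animal, 3 of them by little and 289 by far, and the difference was 1.11 ± 0.66 (2.15-fold, adjusted p = 0.752). Against the same air animals it was 1.08 at 0.7 ppm and 0.44 at 2 ppm.

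Ptgs2, the inducible cyclooxygenase gene, had 6.98, 7.32, 7.39 and 7.12 against 5.64, 6.30, 6.30 and 6.96. Its exposed animals were close together above a scattered air group, with a difference of 0.90 ± 0.52, and the values at 2 ppm and 0.7 ppm were 0.04 and -0.05. Il1a stood at 0.78 ± 0.62, Saa3, an acute-phase protein gene, at 0.83 ± 0.59, and Csf3r, the G-CSF receptor of neutrophils, at 0.78 ± 0.46. In these 3 genes animal 289 was again the highest, at 6.69, 7.39 and 6.70.

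Over 31 inflammatory mediators, 23 were above air, the median was 0.11 and none reached an unadjusted p under 0.05. Averaged over this list the exposed animals were at 7.27, 7.95, 7.54 and 7.36 and the air animals at 7.16, 7.39, 7.42 and 7.28, so the exposed group exceeded air through 289 and 290. The medians of this list at 2 ppm and 0.7 ppm were 0.03 and 0.04. Neutrophil markers were also mostly above air. Of 12, 10 stood higher with a median of 0.34, and averages were 5.92, 6.24, 5.76 and 5.83 against 5.22, 5.75, 5.70 and 5.56. Against the same air animals the medians were 0.18 at 2 ppm and 0.28 at 0.7 ppm, and 5 of the 12 markers were higher at 6 ppm than at 2 ppm. S100a8, a neutrophil granule-associated protein gene, had 9.41, 9.38, 8.84 and 9.60 against 7.31, 8.71, 8.99 and 8.64. The part of neutrophil content in the inflammatory values was not tested.

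Interferon-induced genes were above air in 21 of 22 cases with a median of 0.15, after 21 of 22 below air at 6 h with a median of -0.27. Those with small p-values, Oasl (0.64 ± 0.34), Gbp2 (0.54 ± 0.36) and Ifit2 (0.51 ± 0.33), are antiviral effector genes, and none of the list reached an unadjusted p under 0.05. Such genes are driven by a common signal, so their shared sign is not that of independent genes. List averages were 7.96, 8.11, 8.20 and 7.80 in exposed and 7.85, 7.72, 7.89 and 7.70 in air animals, which overlapped. At 2 ppm and 0.7 ppm the medians were 0.07 and 0.0012.

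Other genes without overlap had varied roles. Nog, which encodes the BMP antagonist noggin, had 7.63, 7.54, 7.52 and 7.16 against 7.01, 5.95, 7.02 and 6.49, a difference of 0.84 ± 0.30 (adjusted p = 0.422). Cxcl14, an epithelial chemokine gene, stood at 0.73 ± 0.27, Mest at 0.72 ± 0.40, and Bcl3, a regulator of NF-kB, at 0.55 ± 0.31. Gzmk, a granzyme gene of cytotoxic lymphocytes, stood at 0.55 ± 0.14, a small difference with a narrow spread. Among 31042 probe sets, 777 were higher without overlap (2.5%) and 592 lower (1.91%).

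On the lower side, Slc22a3, an organic cation transporter gene, had 4.34, 4.45, 4.67 and 3.89 against 5.10, 6.27, 4.75 and 4.80. The difference was -0.89 ± 0.29 (adjusted p = 0.382), and the same gene stood at -1.21 at 0.7 ppm and -0.69 at 2 ppm. Aspa, an acylase gene, stood below air at all 3 concentrations, with -0.71 at 6 ppm, -1.16 at 0.7 ppm and -0.71 at 2 ppm. In both genes air animal 56 was the highest of the 8. Rgr stood at -0.69 ± 0.19, Pitx1, a homeobox gene, at -0.53 ± 0.27, Irs2, an insulin receptor substrate gene, at -0.51 ± 0.19, and Ascl3, a transcription factor gene of secretory and ionocyte lineages, at -0.49 ± 0.17.

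Clock genes held some of the smallest p-values of the comparison. The molecular clock is a feedback loop in which Bmal1 activates Per, Cry, Dbp and the repressors Nr1d1 and Nr1d2, which in turn repress Bmal1 and Nfil3. Nr1d1 had 8.52, 8.72, 8.22 and 8.61 in the exposed animals against 7.80, 7.06, 8.32 and 7.58 in air. Of the 4 air animals, 3 were below all exposed animals, and the difference was 0.83 ± 0.19 (1.77-fold, adjusted p = 0.113). Nr1d2 had 8.99, 8.84, 8.60 and 8.84 against 8.46, 8.23, 8.45 and 8.25 without overlap, a difference of 0.47 ± 0.12 (adjusted p = 0.184).

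The genes that these repressors act on lay on the other side. Bmal1 stood at -0.38 ± 0.14, with 8.21, 8.50, 8.13 and 8.02 against 8.61, 8.75, 8.38 and 8.65. Nfil3 stood at -0.58 ± 0.18, with 7.45, 7.79, 8.20 and 7.63 against 8.23, 8.86, 8.39 and 7.93. Exposed animal 289 lay inside the air range for Bmal1 and 290 for Nfil3. Dbp stood at 0.32 ± 0.16, Per1 at -0.28 ± 0.15 and Per2 at -0.19 ± 0.13. Of the 20 measured clock genes, 3 reached an unadjusted p under 0.05 above and 4 below air, and none was called. Over all genes these shares were 3.33% and 4.07%.

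The other concentrations, which share the air animals, gave values of the same sign for Nr1d1, Nr1d2, Bmal1 and Nfil3. Nr1d1 stood 0.89 above the same air animals at 2 ppm and 0.22 at 0.7 ppm, and its difference between 6 and 2 ppm was -0.07. Nfil3 stood at -0.64 and -0.69 at 2 and 0.7 ppm. The air groups of 6 h and 24 h, which are separate animals, also differed: Bmal1 lay between 6.38 and 6.99 in air at 6 h and between 8.38 and 8.75 in air at 24 h. This difference was not tested. The labels hold no time of day for any group, and its part was not tested.

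**Figure D4:**
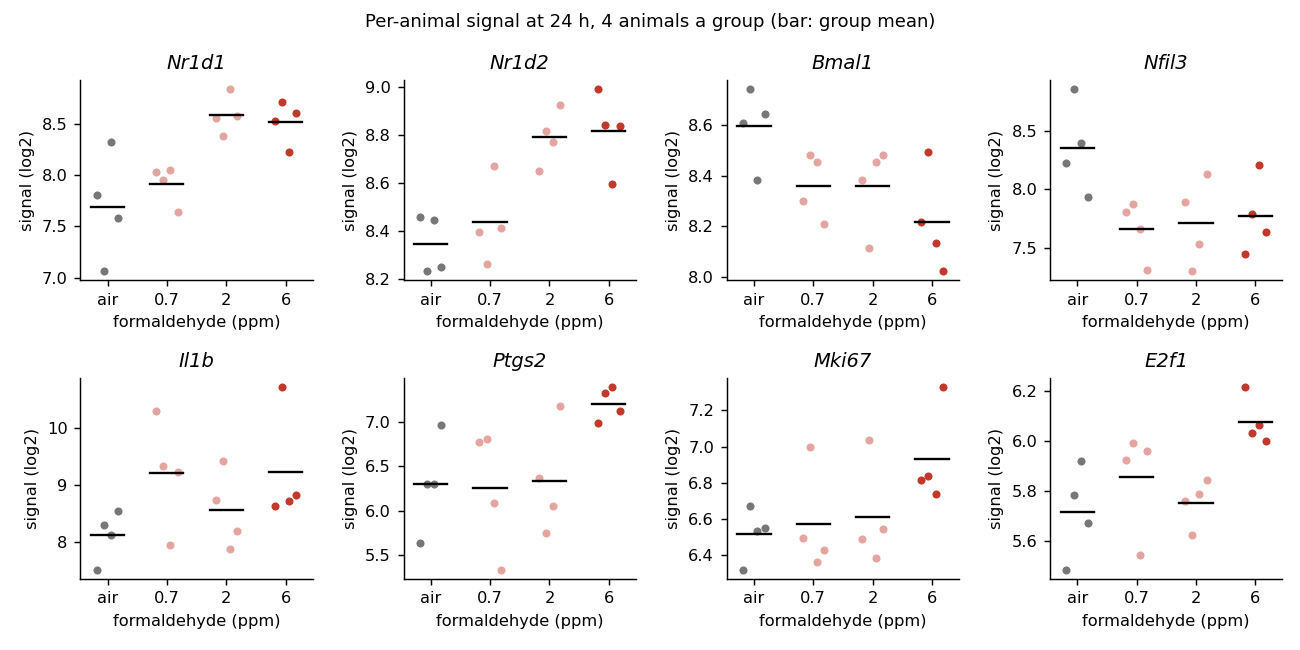
Signals (log2) of 8 genes in each animal at 24 h for air, 0.7, 2 and 6 ppm, with 4 animals a group and a bar at each group mean; all 3 concentrations share the air animals. Nr1d1 and Nr1d2 are as high at 2 ppm as at 6 ppm, while E2f1 and Ptgs2 are highest on average at 6 ppm.

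Hormone, stress and protein quality genes were mostly slightly below air. Of 19 glucocorticoid-responsive genes, 13 were below air with a median of -0.13, after a median of 0.24 at 6 h. The same list had medians of -0.17 at 2 ppm and -0.18 at 0.7 ppm against the same air animals. Pdk4, a pyruvate dehydrogenase kinase gene, stood at -0.77 ± 0.29, Tsc22d3, which encodes GILZ, at -0.47 ± 0.20, and Mt1, a metallothionein gene, at -0.38 ± 0.12. Of 29 immediate early genes, 18 were above air with a median of 0.09, and the medians at 2 and 0.7 ppm were 0.08 and -0.12. In this list the nuclear receptor genes Nr4a2 and Nr4a3 stood at -0.90 ± 0.24 and -0.96 ± 0.40, and Nr4a2 was at -0.80 and -0.81 at 2 and 0.7 ppm. Dusp4, a MAP kinase phosphatase gene, stood at 0.43 ± 0.12 without overlap.

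At an unadjusted p under 0.05, 5 of 23 genes of the unfolded protein and integrated stress responses were lower and 0 higher, against 4.07% and 3.33% of all genes. Of the 23, 18 were below air with a median of -0.15. The median was also -0.15 at 2 ppm and -0.19 at 0.7 ppm against the same air animals, and the median difference between 6 and 2 ppm was -0.0057. Asns, asparagine synthetase, had 9.80, 9.92, 9.99 and 9.42 against 9.98, 10.55, 9.82 and 10.26, a difference of -0.37 ± 0.12. Herpud1 stood at -0.29 ± 0.10 and the chaperone gene Pdia4 at -0.36 ± 0.16. Heat shock chaperones were below air in 13 of 15 cases with a median of -0.11, with the smallest p for Hsph1 at -0.40 ± 0.14. Cholesterol synthesis genes were below air in 16 of 19 cases with a median of -0.07, with the smallest p for Lss, lanosterol synthase, at -0.37 ± 0.10. The medians at 2 and 0.7 ppm were -0.08 and -0.03 for the chaperones and -0.16 and -0.05 for cholesterol synthesis.

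The list averages of the unfolded protein genes were 9.54, 9.63, 9.65 and 9.43 in the exposed and 9.64, 9.79, 9.60 and 9.76 in the air animals, and 288 and 292 were the lowest. The same animals were lowest in exocrine gland transcripts, as given below. Without both, the median of the list was -0.07. The part of gland content in these values was not tested.

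Genes of formaldehyde disposal and DNA damage differed little. Adh5 had 11.05 ± 0.20 (SD, n = 4) against 11.09 ± 0.20, and Aldh2, the mitochondrial aldehyde dehydrogenase gene, had 12.24, 12.10, 12.04 and 12.02 against 12.41, 12.35, 12.42 and 12.38. The Aldh2 groups did not overlap and the difference was -0.29 ± 0.15 (adjusted p = 0.678), with -0.24 at 6 h. Over 23 aldehyde metabolism genes the median was -0.01, over 15 p53 targets 0.04 and over 19 crosslink repair genes -0.02. Cdkn1a, the cell cycle inhibitor p21 induced by p53, stood at 0.13 ± 0.20. Fance and Palb2, of the Fanconi anaemia pathway, stood at -0.29 ± 0.10 and -0.24 ± 0.10.

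Epithelial cell markers were measured, but they do not test the label of the tissue, as olfactory, gland and tooth transcripts were measured too. Krt5 of basal cells had 12.24 ± 0.11 (SD, n = 4) against 12.09 ± 0.25 and Foxj1 of ciliated cells 9.68 ± 0.18 against 9.81 ± 0.23, so transcripts of both lineages were measured. Ciliated cell markers were below air in 13 of 16 cases with a median of -0.10. Basal and squamous markers had a median of -0.02 but also differed among the exposed animals. Their averages were 9.82, 9.78, 9.28 and 10.48 against 9.74, 10.03, 9.94 and 9.87 in air, so 290 was lowest and 292 highest. Olfactory markers, median -0.08 at 24 h and 0.46 at 6 h, ranged widely among the exposed animals. Their averages were 9.77, 8.61, 9.10 and 10.01 against 9.40, 9.19, 9.49 and 9.57 in air, and without 288 and 292 the median became -0.66. Erythroid markers were above air in 7 of 7 cases, with a median of 0.16, and had medians of 0.39 at 2 ppm and 0.10 at 0.7 ppm.

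Exposed animals differed widely from each other in transcripts of exocrine glands and of teeth. These genes were chosen after their values were seen. Pip, a secretory protein of exocrine glands, had 9.06, 12.58, 12.80 and 8.00 in the exposed animals against 13.49, 13.59, 12.52 and 13.13 in air. Sval2, a relative of Pip, had 5.32, 11.66, 10.66 and 5.66 against 11.58, 12.20, 11.99 and 10.64. Dnase1, a secreted nuclease of glands, had 10.40, 13.83, 13.50 and 10.43 against 13.73, 14.08, 13.83 and 13.67. In all 3 genes, 288 and 292 were below every air animal. Animals 289 and 290 lay within the air range, except for the Dnase1 signal of 290, which was just below it.

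The mean differences of these genes, -2.58, -3.28 and -1.79, were among the largest of the comparison and none was called. Without 288 and 292 they were -0.50, -0.45 and -0.17. Low Pip signals also occurred in other groups. At 6 h they were 7.60 in 1 air animal and 6.67 in animal 286 of 6 ppm. At 24 h a signal of 5.61 was found in 1 animal exposed to 0.7 ppm. The air group had a mean Pip signal of 9.81 at 6 h and of 13.18 at 24 h. Against the same air animals of 24 h, Pip stood at -3.02 at 0.7 ppm and -1.99 at 2 ppm, and Sval2 at -3.56 and -2.33. The pairs of exposed arrays at 24 h followed the split of 288 and 292 from 289 and 290. Correlations were 0.9935 between 288 and 292, 0.9923 between 289 and 290, and 0.9858 between 289 and 292.

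Amelx and Ambn, which encode the enamel proteins amelogenin and ameloblastin of growing teeth, varied among animals in another order than the gland genes. Amelx had 6.62, 10.99, 13.12 and 9.14 in the exposed animals against 4.11, 6.43, 8.38 and 4.50 in air, on its probe set with the largest difference, 4.11. Ambn had 10.77, 11.51, 13.37 and 11.87 against 7.28, 11.71, 10.36 and 11.26. At 0.7 and 2 ppm the same Amelx probe set ran from 5.38 to 12.66. Of the 37 probe sets with a mean difference beyond 2-fold, only that of Il1b did not overlap between groups, and adjusted p-values ran from 0.143 to 0.866.

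**Figure D5:**
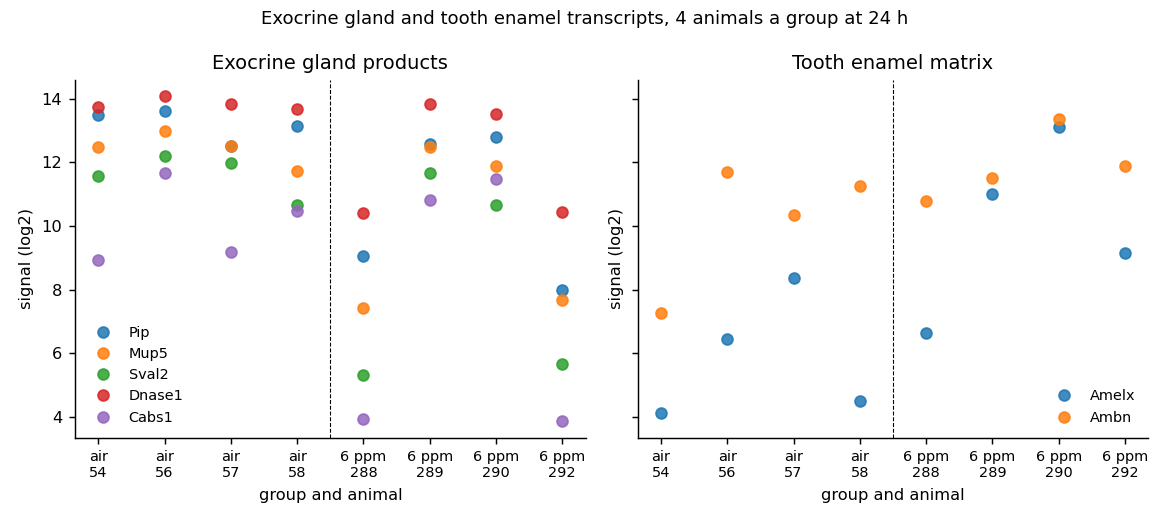
Signals (log2) of exocrine gland genes (left) and tooth enamel genes (right) in each of the 4 air and 4 exposed animals at 24 h. Gland genes are low in exposed animals 288 and 292 and in or near the air range in 289 and 290, and Amelx is highest in exposed animal 290.

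With 288 and 292 left out together, an alternative chosen after seeing the data, 8 probe sets were called against air, 1386300_at was not among them (adjusted p = 0.474), and 1590 had an unadjusted p under 0.05. Among the 8 was Matn1, a cartilage matrix gene, at 2.00, which rested on 289 with a signal of 8.77 against 4.57 to 4.96 in the other exposed animals. The cell cycle median was 0.10, the inflammatory median 0.27 and the interferon median 0.29 in this fit. All 3 medians were above air.

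Against the other concentrations of the same time, 6 ppm gave no call. The comparison with 2 ppm gave 0 calls (0%, limma, with 775 at an unadjusted p under 0.05). The comparison with the mean of air, 0.7 and 2 ppm also gave 0 (0%, limma, with 1532 at an unadjusted p under 0.05 and 2 at an adjusted p under 0.1). Leaving out air animal 57 gave 5 calls in the second of these and leaving out exposed animal 288 gave 7.

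After 5 days of exposure the 6 ppm effect was larger than at 24 h for 8 probe sets (0.0258%, limma), all in the higher direction. The time from the last exposure to collection at 5 days is not given here. Repeated exposure and time since exposure therefore cannot be told apart. Per2, a core clock repressor gene, went from -0.19 at 24 h to 0.91 at 5 days, after 0.61 at 6 h. Slc25a15, the mitochondrial ornithine carrier gene, went from -0.24 to 1.20 on 1 probe set and from -0.23 to 0.96 on another, and stood at 0.82 and 0.75 at 6 h. Atrx, a chromatin remodeller gene, went from -0.05 to 1.51 after 1.04 at 6 h, and Nt5dc2 from -0.37 to 0.46. The probe sets with no listed gene, 1380306_at, 1392613_at and 1397225_at, stood at 0.29, 0.22 and 0.27 at 24 h and at 2.90, 2.92 and 1.97 at 5 days. The group means behind these changes differed by gene. On the first Slc25a15 probe set air stood at 7.16 at 6 h and 7.93 at 24 h, and 6 ppm at 7.97 and 7.69. Its air animals of 5 days lay between 6.98 and 7.18. Nt5dc2 stood at 9.04 in air at 6 h and 9.57 at 24 h. Its 24 h differences at 2 and 0.7 ppm were -0.44 and -0.42. In Per2, Atrx and the probe sets with no listed gene, 6 ppm fell more from 6 h to 24 h than air changed. Of these 8, all but Nt5dc2 were also above air at 6 h by 0.61 or more, and for all 8 the 24 h value was the lowest of the 3 times. The 8 were chosen by this change, so a low 24 h value is part of the choice.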

How the data were processed

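The deposited values are log2 signals of Affymetrix Rat230_2 arrays, 1 column per animal; the authors' background correction, summarisation and normalization are not given in the sources used here, and the log2 scale was read from the values (2.67 to 14.83). After 57 control probe sets were left out, 31042 were tested. Symbols came from the platform annotation, updated to RefSeq; 20826 probe sets had 1 symbol, 436 several and 9780 none, and the probe set with the highest mean over 98 arrays stood for each of 14217 genes. One limma model (limma 3.58.1, R 4.3.3) with a coefficient for each of 24 groups was fitted to 98 arrays (74 residual degrees of freedom), with Benjamini-Hochberg adjustment over all probe sets, 0.05 as threshold and SE from the model. The procedure was tested on simulated data. Each p-value sets a difference against a moderated spread between animals within groups, estimated over all 24 groups and not from the compared animals alone. Precision rests on 4 animals a group, as arrays hold no counts. Members, gene lists (35, 883 entries, 744 measured) and tests were chosen with earlier results of these data known. Named genes were the called probe sets, the 12 largest differences without overlap in each direction, the 12 largest 6 h calls in each direction, the 4 smallest p-values of each list and a fixed set of marker genes; not all are printed. Alternatives are given in the closing section.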

Additional observations from a re-analysis of the deposited data

Results flagged for a closer look

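Each named gene was examined in the exposed and in the air group, which gave 390 sets of 4 signals from the same 8 animals. In 22 sets (5.64%) 1 animal lay far from the others by Dixon's criterion, which chance flags in about 5% of independent sets. The sets are not independent, and some genes were named for a lack of overlap, so the shares are not strictly comparable. Of the 22, air animal 56 accounted for 8. It was high for Sprr1b (8.52), Tgm3 (8.09), Krt5 (12.46), Nat1 (7.28), Obp1f (14.45) and Itgam (4.74), and low for Mest (5.36) and Nqo1 (12.23). Exposed animal 289 accounted for 5. It was high for Il1b (10.72), Saa3 (7.39), Matn1 (8.77) and Mb (4.59) and low for Ccr3 (3.69). Exposed animal 292 was high for Rgr (4.52) and Mki67 (7.33) and low for Il5ra (3.65). Exposed animal 290 was low for Mmrn1 (5.14). Air animal 54 was low for Nob1 (8.57), Rps9 (12.96) and Slpi (8.54), air animal 57 was low for Muc1 (8.79), and air animal 58 was high for Gfi1b (5.44). All values are log2 signals at 24 h.

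The 6 ppm effect differed between 24 h and 5 days in the test of the difference itself for 8 probe sets, given as the 5 day effect minus the 24 h effect (log2). The differences were 1.09 for Per2, 0.84 for Nt5dc2, 1.56 for Atrx, 1.45 and 1.19 for the 2 probe sets of Slc25a15, 2.60 for 1380306_at, 2.70 for 1392613_at and 1.70 for 1397225_at.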

How the results depend on the processing

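Counts are of probe sets called. Against air at 24 h the count of 1 became 0 with the compared groups fitted alone and with cyclic loess, 9 with array weights and 6 at an adjusted p under 0.1; with 1 animal left out it ran from 0 to 20. It was also 0 with the upper part of probe sets by mean signal and with gene means, but both leave out the called probe set before testing. The change from 6 h to 24 h gave 0 with any 1 animal left out and 2 with array weights. Against 2 ppm the count of 0 ran from 0 to 1. Against the mean of air, 0.7 and 2 ppm it became 1 with the upper part of probe sets and 4 with array weights, and ran from 0 to 7. For 5 days minus 24 h the count of 8 became 3 with the groups alone and 41 with array weights, and ran from 4 to 11. At 6 h the count of 76 became 7 and 728 under these settings, and ran from 15 to 197. With the 85 arrays that have a RNA integrity number, which lacks 288 and 57, and no covariate, chosen after seeing the data, the counts were 5 against air, 0 for the change from 6 h, 1 against 2 ppm, 4 against the mean of the 3 groups, 4 for 5 days minus 24 h and 34 at 6 h; with the number as a covariate in the same arrays they were 2, 0, 1, 2, 3 and 23. Leaving out exposed animals 288 and 292 together, chosen after seeing the data, gave 8, 4, 8, 9 and 3 in the first 5 of these comparisons. The cause of these changes was not tested. Of 3330 values of named genes under alternatives, 3250 kept their call status, and those not called in the main fit moved by less than the spread. Of 420 list medians, 410 moved by less than the spread. These counts do not show that a value kept its side of air. Some crossed it, such as Sprr1b (-0.57 to 0.76), Tgm3 (-0.29 to 0.28) and the median of the Nrf2 targets (-0.02 to 0.09). Nr1d1 and Tmem131l were called with array weights (adjusted p = 0.0152 for both), and Nr1d1 in the 85 arrays without the covariate (adjusted p = 0.0173). The cell cycle median ran from 0.10 to 0.19, the interferon median from 0.11 to 0.29 and the inflammatory median from 0.03 to 0.27. The number of animals limits every comparison. No paired analysis was possible because no animal number occurs in more than 1 group.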
